A study of Mus musculus with 22 samples.

Results

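The mitochondrial solute carriers of the Slc25 family were followed through ventricles of mouse embryos with a heart knockout of LIN9, Sav1 or both. Members were all genes of the deposited count tables whose mouse symbol is Slc25a and a number, and 47 of the 48709 genes listed met this rule. Of these, 44 had a mean count above 1 over the libraries and were tested in each experiment. The other 3 were hardly counted at all. Slc25a2 had no count in any of the 18 libraries, Slc25a41 had 3 counts in all in experiment 1 and none in experiment 2, and Slc25a48 had 4 and 2. A count of 0 allows up to 3 counts, which is at most 0.325 CPM in a library of experiment 1 and 1.12 in one of experiment 2, for counting error only. CPM is the usual unit of counts scaled to the size of the library, here with TMM, edgeR's normalization for RNA composition.

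The inner mitochondrial membrane is closed to charged metabolites, and Slc25 proteins are the carriers that let nucleotides, phosphate, carboxylates, amino acids, acylcarnitines and cofactors cross it. In heart muscle the best known are the ADP/ATP carriers, which hand out the ATP made by oxidative phosphorylation, the phosphate carrier, which brings in phosphate for it, and the carriers of the malate-aspartate and carnitine shuttles, which bring in reducing power and fatty acids. LIN9 is a core subunit of the MuvB complex, which with B-MYB activates late cell cycle genes. Sav1 (Salvador) is a scaffold of the Hippo kinases, which restrain the coactivator YAP.

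RNA from heart ventricles of E13.5 (embryonic day) mouse embryos was sequenced in 2 experiments, with 3 libraries in each of 6 groups. Nkx2.5-Cre, which is active in cardiac progenitors and their descendants, was present in all groups, controls included, on a C57/Bl6 background by the methods of the study. Experiment 1 compared LIN9 wt with LIN9 KO ventricles, all of them with unmodified Sav1. Experiment 2 crossed the same LIN9 genotypes with Sav1 wt or Sav1 KO, which gives wild-type, LIN9 KO, Sav1 KO and double KO ventricles. LIN9 KO embryos carried 2 floxed Lin9 alleles (Lin9 fl/fl) and Sav1 KO embryos 2 floxed Sav1 alleles. The LIN9 wt groups are labelled as wild-type, whereas the study describes controls with 1 floxed Lin9 allele (Lin9 fl/+). Ventricles also hold cells that never expressed Cre. The study calls the experiments biological replicates that were each run in triplicate, without saying whether the 3 libraries of a group came from separate embryos. The p-values thus measure the spread between these samples, which may be technical.

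Total counts were 9485599 to 9615274 per library in experiment 1 and 2770741 to 2999877 in experiment 2. Counts cover whole genes and the floxed alleles delete only a part of each. Lin9 was at 25.6 ± 4.19 CPM in LIN9 wt and 20.6 ± 1.21 CPM in LIN9 KO libraries of experiment 1 (mean ± SD, n = 3) and did not pass the test (edgeR adjusted p = 0.13), was lower in experiment 2 with Sav1 wt (log2 fold change -0.80 ± 0.19, edgeR adjusted p = 0.00269), and did not pass with Sav1 KO (-0.16 ± 0.18, edgeR adjusted p = 0.586). Sav1 was at 57.5 ± 3.88 CPM in wild-type and 40.7 ± 3.98 CPM in Sav1 KO libraries (n = 3 each, edgeR adjusted p = 0.317). Of 12 cardiomyocyte markers, 10 could be tested, and Actc1 and Tnnc1 were listed at 0 in all libraries, as were the erythroid gene Alas2 and other genes that lie within another annotated gene, so a 0 there says nothing of expression.

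Levels are given in CPM and, for comparison between genes, in CPM per kb of exonic length. In LIN9 wt ventricles of experiment 1, Slc25a4 (adenine nucleotide translocase 1) stood first at 666 ± 59.4 CPM per kb (SD, n = 3). Slc25a5 (adenine nucleotide translocase 2) followed at 297 ± 16.1 and Slc25a3, the phosphate carrier, at 142 ± 7.65. Slc25a11, the oxoglutarate/malate carrier, had 83.9 ± 4.90, Slc25a39, which imports glutathione, 57.6 ± 3.06, and Slc25a13, an aspartate/glutamate carrier, 34.5 ± 2.50 CPM per kb. No library of one of these 6 reached the level of the carrier above it. Below them neighbours overlapped: Slc25a24, an ATP-Mg/phosphate carrier, had 22.7 ± 2.12, Slc25a17, the peroxisomal cofactor carrier, 21.6, Slc25a51, which imports NAD, 21.3 and Slc25a12 19.6 CPM per kb. Slc25a3, Slc25a4 and Slc25a5 together made up 59.6% to 64.6% of the family's summed CPM in the 9 LIN9 wt libraries and 51.5% to 57.2% in the 9 LIN9 KO libraries, 2 ranges that did not overlap.

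Because the most abundant carriers fell together with loss of LIN9, as described below, the promoters of the 4 that fell in every LIN9 comparison and lie among the 5 highest per kb are shown. They are RefSeq sequences on GRCm38.p6 from 250 bases before to 50 after the annotated start, 5′ to 3′ on the strand of the gene, with matches to a searched motif in capitals. The RefSeq start lies 92 bases from the outer GENCODE start of the gene for Slc25a3, 222 for Slc25a4, 54 for Slc25a5 and 440 for Slc25a11, whose whole window lies inside the GENCODE gene span.

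Slc25a3 (chr10:91123918-91124217, minus strand): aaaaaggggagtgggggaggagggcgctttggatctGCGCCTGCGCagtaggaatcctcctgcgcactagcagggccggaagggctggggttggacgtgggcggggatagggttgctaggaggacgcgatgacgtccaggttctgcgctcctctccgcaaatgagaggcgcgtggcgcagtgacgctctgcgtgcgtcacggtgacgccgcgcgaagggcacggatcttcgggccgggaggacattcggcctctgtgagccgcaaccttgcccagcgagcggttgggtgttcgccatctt
Slc25a4 (chr8:46211013-46211312, minus strand): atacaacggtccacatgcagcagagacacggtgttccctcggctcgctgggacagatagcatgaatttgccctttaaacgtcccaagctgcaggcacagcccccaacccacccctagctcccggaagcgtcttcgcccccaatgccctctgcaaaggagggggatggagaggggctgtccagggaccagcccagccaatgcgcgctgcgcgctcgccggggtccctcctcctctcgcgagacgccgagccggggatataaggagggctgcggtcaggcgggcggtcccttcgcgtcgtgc
Slc25a5 (chrX:36795347-36795646, plus strand): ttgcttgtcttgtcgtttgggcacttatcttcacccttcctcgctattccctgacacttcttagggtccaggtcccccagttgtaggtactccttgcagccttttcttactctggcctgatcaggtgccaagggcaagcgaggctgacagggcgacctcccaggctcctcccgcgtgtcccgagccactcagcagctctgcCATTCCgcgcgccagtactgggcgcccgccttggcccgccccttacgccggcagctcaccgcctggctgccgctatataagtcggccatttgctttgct
Slc25a11 (chr11:70646990-70647289, minus strand): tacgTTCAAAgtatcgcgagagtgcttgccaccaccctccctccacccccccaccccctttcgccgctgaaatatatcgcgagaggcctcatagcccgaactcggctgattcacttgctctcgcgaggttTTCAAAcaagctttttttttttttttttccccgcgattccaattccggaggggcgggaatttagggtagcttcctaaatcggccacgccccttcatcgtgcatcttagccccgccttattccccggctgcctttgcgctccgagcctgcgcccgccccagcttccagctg

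4 motifs were searched on both strands: TTTGAA, the core of the cell cycle homology region that MuvB complexes bind; CATTCC, the TEAD element through which YAP reaches DNA; AAGGTCA, the element of oestrogen-related receptors; and the NRF1 element, which is rich in G and C, these last being elements of regulators of mitochondrial genes. Slc25a3 held the NRF1 element at bases 37 to 46 as read from the 5′ end, on the reverse strand. Slc25a5 held the TEAD element at bases 202 to 207, and Slc25a11 held the cell cycle core on the reverse strand at bases 5 to 10 and 131 to 136. The Slc25a4 window held none of the 4. Over all 46 promoter entries of the 36 members found in the RefSeq table, the cell cycle core was in 6 (13%), against 17.9% of all 32851 promoters, and the TEAD element in 9 (19.6%), against 14.7%. The ERR element was in 1 member entry (2.17%, against 4.72%) and the NRF1 element in 2 (4.35%, against 4.60%). Among the 8 promoters of members that fell in both LIN9 comparisons with wild-type Sav1, the cell cycle core was in 1, the TEAD element in 2, the NRF1 element in 1 and the ERR element in 0. A match is a description of these letters and no evidence of binding. The members with no entry in the table included Slc25a2, Slc25a26, Slc25a27, Slc25a32, Slc25a35, Slc25a37, Slc25a41, Slc25a44, Slc25a46 and Slc25a51.

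The main question was how the carriers differ between LIN9 KO and LIN9 wt ventricles. Summed over the family, expression was 4514 ± 206 CPM in LIN9 wt and 3508 ± 38.6 CPM in LIN9 KO libraries of experiment 1 (mean ± SD, n = 3 each), a change of -22.3%. In experiment 2 it was 4163 ± 178 CPM in wild-type and 3257 ± 132 CPM in LIN9 KO libraries (-21.8%), and 4129 ± 30.2 CPM in Sav1 KO and 3156 ± 132 CPM in double KO libraries (-23.6%). The highest LIN9 KO or double KO library, at 3535 CPM, lay below the lowest of the other libraries, at 4018 CPM.

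**Figure D1:**
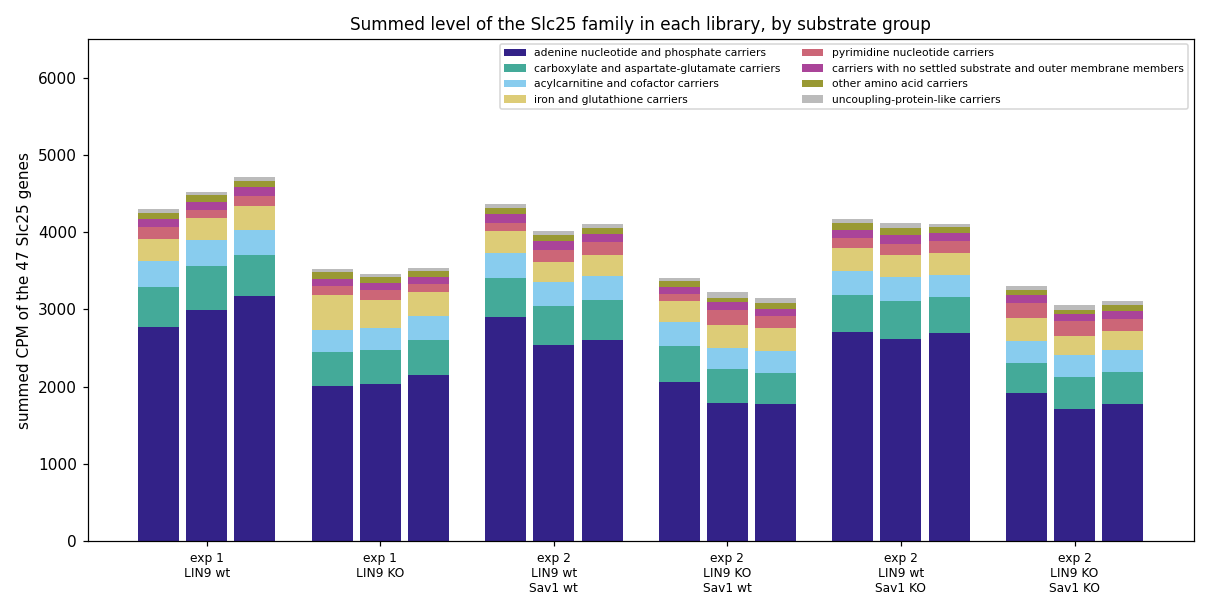
Summed CPM of the 47 Slc25 members on the y axis, 1 stacked bar for each of the 18 libraries in their 6 groups, coloured by substrate group. All 9 LIN9 KO and double KO libraries lie between 3052 and 3535 CPM, and all 9 others between 4018 and 4716 CPM.

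By gene, 14 of the 44 members tested were lower and 3 higher in LIN9 KO ventricles of experiment 1 (edgeR's quasi-likelihood test, Benjamini-Hochberg adjusted p below 0.05 over all genes tested). Of all 19752 genes tested there, 9.78% were lower and 11.1% higher. The median log2 fold change of the members was -0.19, against 0.02 over all genes. Leaving out 1 library at a time gave 7 to 14 members lower and 3 to 5 higher. The lowest count came without the first LIN9 KO library, where 7.11% of all genes were lower. In experiment 2 with wild-type Sav1, 10 members were lower and 2 higher, where 10.5% of the 17675 genes tested were lower and 12.7% higher, and the median was -0.10 against 0.01. With Sav1 KO in both groups, 8 members were lower and 2 higher, beside 11.6% and 11.8% of all genes, with a median of -0.10 against 0.03. Higher members there numbered 0 without the first double KO library, beside 1804 of all 17642 genes. DESeq2 called 1 higher, beside 1564 of all 17675 genes. The LIN9 comparisons with wild-type Sav1 in experiments 1 and 2 share no library: all 12 members that passed in experiment 2 had passed in the same direction in experiment 1, 10 lower and 2 higher, out of 17. Of these 12, the call in experiment 1 was lost without single libraries for Slc25a13 (in 4 of 6 fits), Slc25a11 and Slc25a46 (3), Slc25a26 (2) and Slc25a3 (1). That in experiment 2 was lost for Slc25a26 (4 of 12), Slc25a46 (2), Slc25a13 and Slc25a42 (1). Of the 17656 genes tested in both experiments, 6.77% were lower in both and 8.07% higher in both. These 2620 genes were 63.9% of those called in experiment 2 and 64.2% of those called in experiment 1. For the members the shares were 100% and 70.6%, and the difference was not tested. In a direct test of the difference between these LIN9 effects, 0 of 44 members passed (lowest edgeR adjusted p = 0.973; 4 members at an unadjusted p under 0.05; 0 by DESeq2), as did 0% of all 19021 genes.

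**Figure D2:**
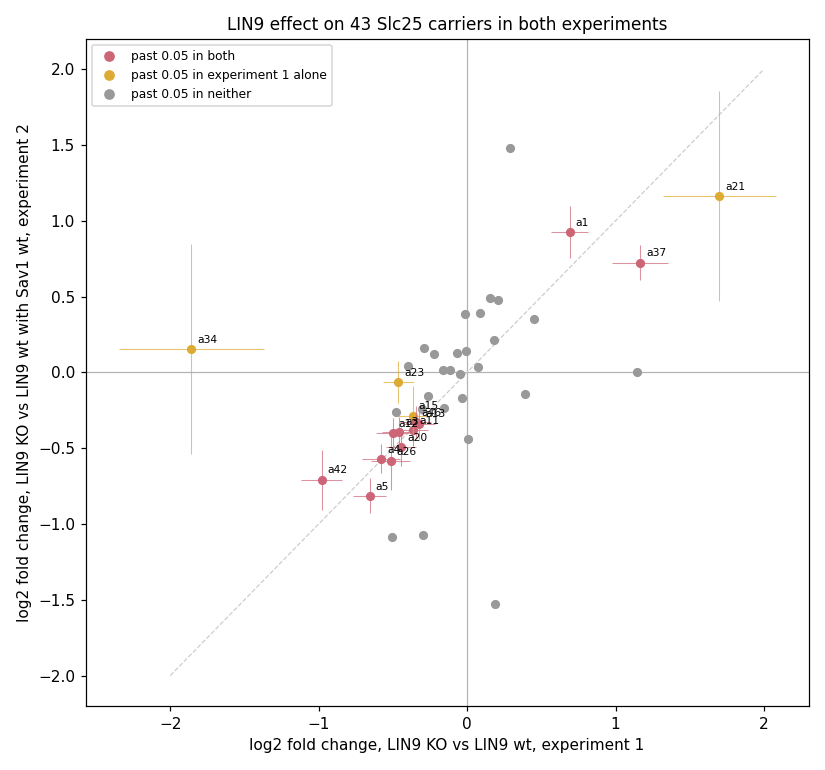
Log2 fold change of 43 of the 44 tested members in LIN9 KO against LIN9 wt ventricles with wild-type Sav1, experiment 1 on the x axis and experiment 2 on the y axis, with bars of 1 standard error for the members that passed in at least 1 of them. The 10 members called lower in both lie in the lower left and the 2 called higher in both, Slc25a1 and Slc25a37, in the upper right. The experiments share no library.

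Cell type markers moved with the same comparisons. Of the 10 cardiomyocyte markers tested 7 were lower in each of the 3 LIN9 comparisons, and their summed level was 20340 to 21680 CPM in LIN9 wt and 9452 to 14890 CPM in LIN9 KO libraries of experiment 1, 23410 to 25120 and 12880 to 14360 in wild-type and LIN9 KO, and 26170 to 27260 and 12350 to 16350 in Sav1 KO and double KO. Erythroid markers rose, 11 of 11 tested in the comparisons with wild-type Sav1 and 10 of 11 with Sav1 KO, as did 4 of 5 epicardial, 5 or 6 of 6 fibroblast and cushion, and 5 or 6 of 6 macrophage markers. Of 6 endothelial markers, 2 or 3 were higher and 0 or 1 lower. In bulk tissue, fewer cells of a type and less RNA per cell cannot be told apart, and the part of cell composition in the changes of the carriers was not tested.

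The adenine nucleotide and phosphate carriers contributed most of the lower sum. Their 8 genes together stood at 2979 ± 198 CPM in LIN9 wt and 2064 ± 78.5 CPM in LIN9 KO libraries of experiment 1, at 2680 ± 191 and 1876 ± 160 CPM in wild-type and LIN9 KO libraries of experiment 2, and at 2674 ± 47.4 and 1805 ± 104 CPM in Sav1 KO and double KO libraries (SD, n = 3). Of 7 tested, 4 were lower in experiment 1 and 3 in each comparison of experiment 2, and none was higher.

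Slc25a4, the ADP/ATP carrier typical of heart and skeletal muscle (chr8:46206797-46211284, minus strand, mm10), had 1440, 1547 and 1718 CPM in the LIN9 wt and 1011, 1019 and 1122 CPM in the LIN9 KO libraries of experiment 1. In experiment 2 it had 1508, 1293 and 1354 CPM in wild-type, 998, 904 and 899 in LIN9 KO, 1392, 1347 and 1404 in Sav1 KO and 996, 851 and 888 in double KO libraries. Every LIN9 KO or double KO library lay below every library of the other groups, within and between experiments. The log2 fold changes were -0.58 ± 0.13 (± SE, edgeR adjusted p = 0.00431), -0.57 ± 0.10 (6.22e-05) and -0.60 ± 0.10 (3.36e-05) for LIN9 in experiment 1, in experiment 2 with Sav1 wt and with Sav1 KO.

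Slc25a5, the ADP/ATP carrier of most other and of proliferating tissues (chrX:36795651-36798807, plus strand), had 461, 490 and 514 CPM in LIN9 wt and 316, 285 and 328 CPM in LIN9 KO libraries of experiment 1. The values in experiment 2 were 485, 400 and 393 in wild-type, 294, 214 and 219 in LIN9 KO, 426, 410 and 400 in Sav1 KO and 278, 226 and 235 CPM in double KO libraries. Again no LIN9 KO or double KO library reached one of the other groups, and with -0.81 ± 0.12 Slc25a5 showed the largest decrease among the members called in experiment 2 with Sav1 wt (edgeR adjusted p = 7.29e-06); it was -0.66 ± 0.11 in experiment 1 (0.000648) and -0.74 ± 0.12 with Sav1 KO (2.65e-05). Slc25a5 has near-identical pseudogene copies, Slc25a5-ps among them, and how the counting divided reads between them is not known, so its level is less certain.

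Slc25a3, the phosphate carrier (chr10:91116574-91124059, minus strand), had 737, 808 and 813 CPM in LIN9 wt and 550, 598 and 570 CPM in LIN9 KO libraries of experiment 1. Experiment 2 gave 775, 702 and 732 CPM in wild-type and 622, 542 and 521 CPM in LIN9 KO libraries, 752, 735 and 779 in Sav1 KO and 519, 512 and 526 in double KO. The groups did not overlap in any of the 3 comparisons. Slc25a3 changed by -0.46 ± 0.11 (edgeR adjusted p = 0.00958), -0.39 ± 0.09 (0.0027) and -0.54 ± 0.09 (8.52e-05) on the log2 scale. Of the calcium-regulated ATP-Mg/phosphate carriers, Slc25a23 was lower in experiment 1 (-0.46 ± 0.11, edgeR adjusted p = 0.0054, against -0.06 ± 0.14, 0.806, in experiment 2 with Sav1 wt, a difference of effects that did not pass at 0.40 ± 0.16, 0.973), while Slc25a24 lay at 0.07 ± 0.10 and 0.04 ± 0.10 and passed in neither.

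**Figure D3:**
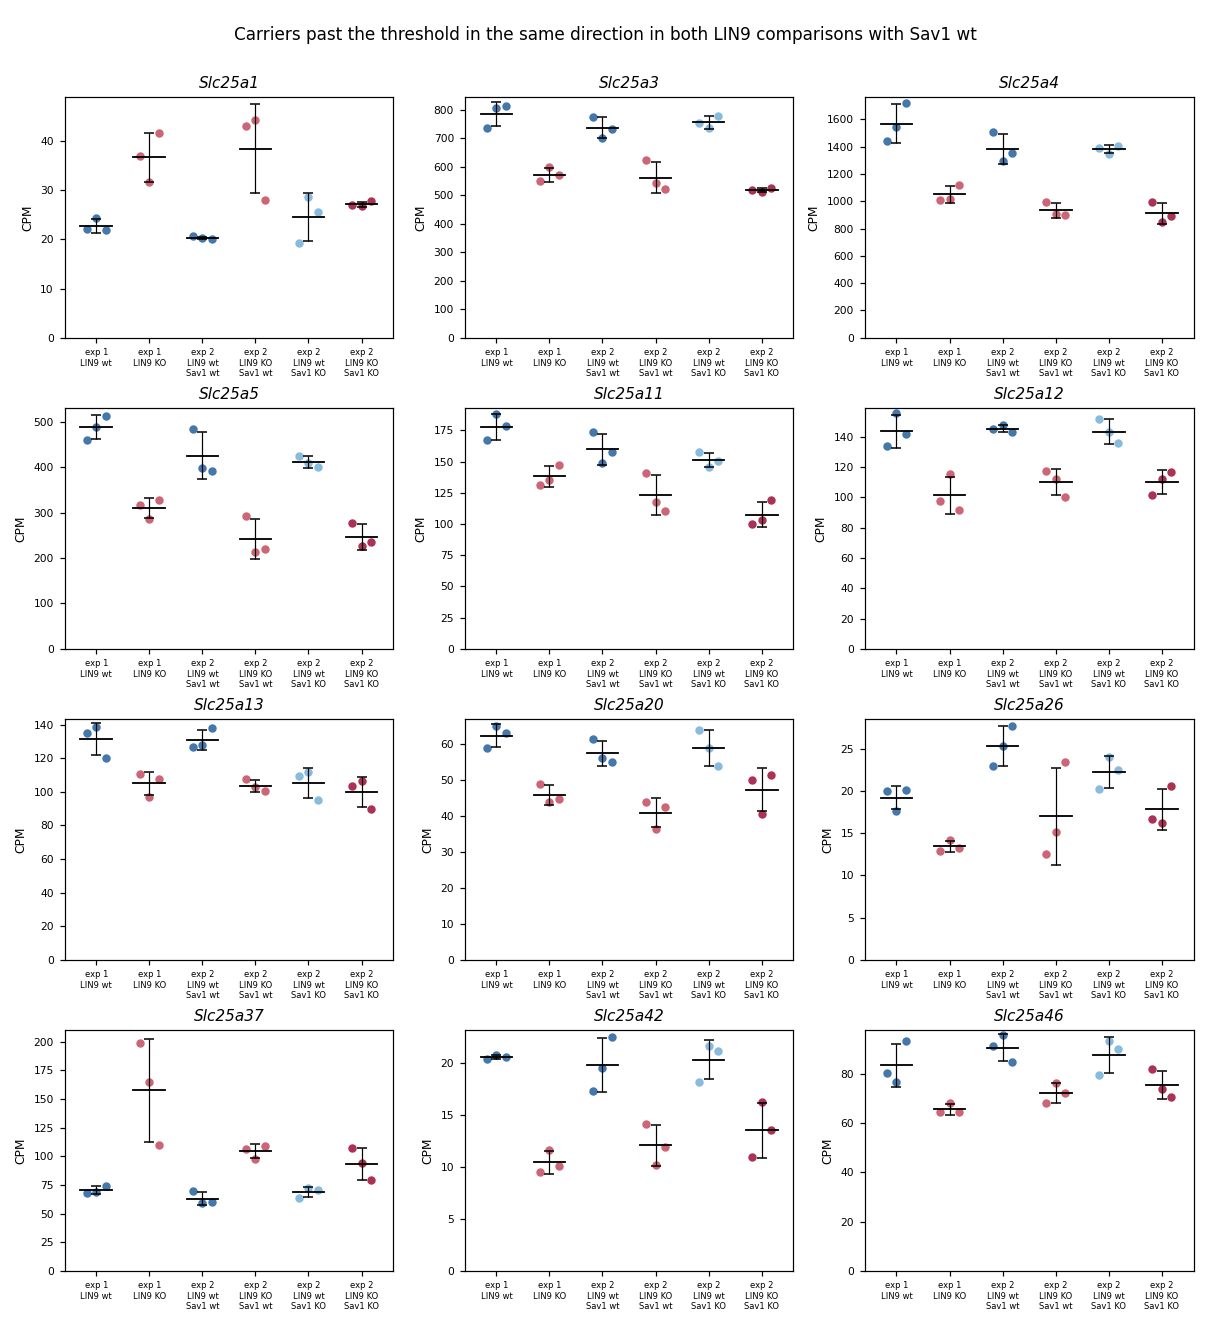
CPM in each of the 18 libraries (points, with group mean and SD, n = 3) for the 12 carriers that passed the test in the same direction in both LIN9 comparisons with wild-type Sav1, 1 panel per carrier, with the 6 groups side by side. With wild-type Sav1, the 10 that fell have their LIN9 KO libraries below the LIN9 wt libraries of the same experiment, except 1 library of Slc25a26 in experiment 2, and the 2 that rose, Slc25a1 and Slc25a37, have them above. The carriers were chosen by the test on these same libraries, so this separation is no separate evidence. The double KO and Sav1 KO libraries overlap for Slc25a1, Slc25a13, Slc25a26 and Slc25a46.

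The balance of the ADP/ATP carriers was read from their share within each library. As a share of Slc25a4 plus Slc25a5, in counts per kb, Slc25a4 made up 68.6, 68.8 and 70.0% in LIN9 wt and 69.1, 71.4 and 70.5% in LIN9 KO libraries of experiment 1, groups that overlapped. The mean difference was 1.19 percentage points there, 3.57 in experiment 2 with Sav1 wt and 2.06 with Sav1 KO (exact permutation test, two-sided, p = 0.2, 0.2 and 0.1). With 3 libraries against 3 this test cannot go below 0.1, and 15 such comparisons of shares were made in all, so none could pass a correction.

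The carboxylate and aspartate/glutamate carriers were divided. Among their 8 members, all tested, 3 were lower and 2 higher in experiment 1, 3 lower and 1 higher in experiment 2 with Sav1 wt, and 2 lower with Sav1 KO. The carriers of the malate-aspartate shuttle were the ones that fell. Slc25a11, which exchanges malate for oxoglutarate (chr11:70644196-70647479, minus strand), had 167, 188 and 178 CPM in LIN9 wt and 132, 136 and 147 in LIN9 KO libraries of experiment 1, then 173, 149 and 158 in wild-type, 141, 118 and 110 in LIN9 KO, 157, 146 and 150 in Sav1 KO and 100, 104 and 119 in double KO libraries. The groups did not overlap within any of the LIN9 comparisons, and the log2 fold changes were -0.36 ± 0.10 (edgeR adjusted p = 0.0179), -0.38 ± 0.11 (0.00997) and -0.49 ± 0.11 (0.00117).

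Slc25a12 (aralar, chr2:71271063-71367749, minus strand), the aspartate/glutamate carrier known from heart and brain, had 134, 156 and 142 CPM in LIN9 wt and 97.8, 115 and 91.5 CPM in LIN9 KO libraries of experiment 1. In experiment 2 the libraries had 145, 148 and 143 CPM in wild-type, 117, 112 and 101 in LIN9 KO, 152, 143 and 136 in Sav1 KO and 102, 112 and 117 in double KO. No LIN9 KO or double KO library reached a library of its control group, with -0.50 ± 0.11 (edgeR adjusted p = 0.00448), -0.40 ± 0.10 (0.0035) and -0.38 ± 0.10 (0.00553). The other aspartate/glutamate carrier, Slc25a13 (citrin, chr6:6041218-6217173, minus strand), had 135, 138 and 120 CPM against 110, 97.1 and 108 CPM in LIN9 wt and LIN9 KO libraries of experiment 1. In experiment 2 Slc25a13 had 127, 128 and 138 CPM in wild-type, 107, 103 and 100 in LIN9 KO, 109, 112 and 95.1 in Sav1 KO and 103, 106 and 90.0 in double KO libraries. It was lower in both comparisons with wild-type Sav1 (-0.32 ± 0.10, edgeR adjusted p = 0.0363, and -0.34 ± 0.10, 0.0165). With Sav1 KO, where the control libraries were themselves lower and overlapped the double KO libraries, it did not pass (-0.08 ± 0.10, 0.65).

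The share of Slc25a12 in Slc25a12 plus Slc25a13, per kb, was 37.2, 37.4 and 35% in wild-type and 41.8, 39.9 and 42.5% in Sav1 KO libraries, groups that did not overlap (4.85 percentage points, exact permutation test, two-sided, p = 0.1, the smallest possible). In the 3 LIN9 comparisons it differed by -2.86, -1.08 and -4.96 percentage points (p = 0.4, 0.3 and 0.2 by the same exact test), and between double KO and LIN9 KO libraries by 0.966 (p = 0.9). The 4 enzymes that complete the malate-aspartate shuttle, Mdh1, Mdh2, Got1 and Got2, were lower in all 3 LIN9 comparisons, with log2 fold changes from -0.56 (Mdh2) to -0.73 (Mdh1) in experiment 1, from -0.50 (Got2) to -0.72 (Mdh1) in experiment 2 with Sav1 wt and from -0.61 (Mdh1) to -0.78 (Got1) with Sav1 KO. Their summed level was 1919 to 2226 CPM in LIN9 wt and 1235 to 1358 CPM in LIN9 KO libraries of experiment 1.

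**Figure D4:**
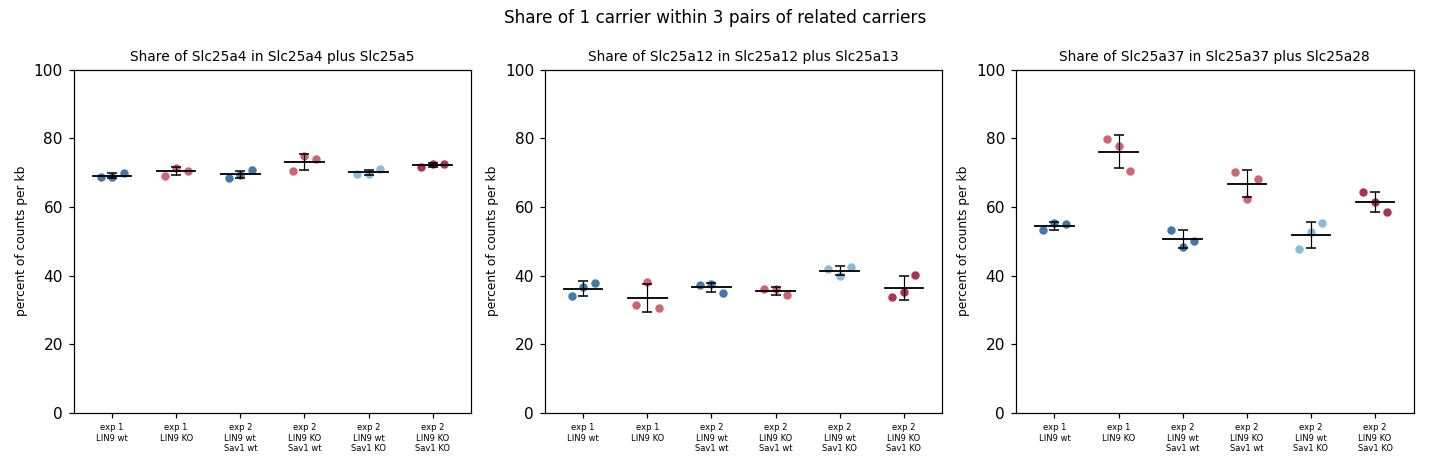
Share, in percent of counts per kb, of Slc25a4 in Slc25a4 plus Slc25a5, of Slc25a12 in Slc25a12 plus Slc25a13 and of Slc25a37 in Slc25a37 plus Slc25a28, in each library (points) with the group mean and SD (n = 3). The Slc25a37 share is higher in every LIN9 KO or double KO library than in its control group, by 21.6, 16.2 and 9.53 percentage points on average, while the shares of Slc25a4 and Slc25a12 move by less than 5 percentage points.

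Slc25a1, the citrate carrier, which exports citrate for lipid synthesis (chr16:17925223-17928219, minus strand), went the other way. It had 22, 24.2 and 21.8 CPM in LIN9 wt and 36.9, 31.6 and 41.5 CPM in LIN9 KO libraries of experiment 1, and 20.6, 20.2 and 20.1 CPM in wild-type and 43, 44.2 and 27.9 CPM in LIN9 KO libraries of experiment 2. The groups did not overlap in either, although the third LIN9 KO library of experiment 2 was much closer to the controls than the other 2. The log2 fold changes were 0.69 ± 0.12 (edgeR adjusted p = 0.00104) and 0.93 ± 0.17 (0.000175), the latter the largest increase among the members called in that comparison. In the Sav1 KO libraries Slc25a1 had 19.2, 28.7 and 25.6 CPM and in the double KO libraries 26.9, 26.8 and 27.7 CPM, which overlapped (0.15 ± 0.17, edgeR adjusted p = 0.6).

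Slc25a21, the oxoadipate carrier, showed the largest increase among the called members in experiment 1 (1.70 ± 0.38, edgeR adjusted p = 0.00482), from 7, 6 and 8 counts in LIN9 wt to 30, 24 and 14 counts in LIN9 KO libraries. In CPM these were 0.721, 0.632 and 0.831 and 3.25, 2.52 and 1.44, and in experiment 2 0.664, 1.03 and 0.691 in wild-type, 1.31, 0.655 and 3.73 in LIN9 KO, 0, 0.675 and 0.682 in Sav1 KO and 1.70, 1.41 and 1.78 in double KO libraries. It had 41 counts in all over the 12 libraries of experiment 2, where it did not pass (1.17 ± 0.69, edgeR adjusted p = 0.25, and 1.76 ± 0.80, 0.113). Slc25a10, the dicarboxylate carrier, lay at -0.01 ± 0.12 and 0.14 ± 0.14 in the LIN9 comparisons with wild-type Sav1 and passed in neither.

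Acylcarnitine and cofactor carriers fell where they passed the test: 4 of 8 in experiment 1, 3 in experiment 2 with Sav1 wt and 2 with Sav1 KO. Slc25a20, the carnitine/acylcarnitine translocase, which brings long-chain fatty acids in for oxidation (chr9:108662088-108684641, plus strand), had 58.9, 65 and 63.2 CPM in LIN9 wt and 49, 43.8 and 44.7 CPM in LIN9 KO libraries of experiment 1. It had 61.5, 56.1 and 55 CPM in wild-type, 44, 36.4 and 42.5 in LIN9 KO, 63.9, 59 and 53.9 in Sav1 KO and 50.1, 40.5 and 51.6 in double KO libraries of experiment 2. In all 3 comparisons the LIN9 KO or double KO libraries lay below their controls. Slc25a20 was lower with wild-type Sav1 (-0.44 ± 0.10, edgeR adjusted p = 0.00496, and -0.49 ± 0.13, 0.00517), and the value with Sav1 KO was -0.32 ± 0.13 (0.0693).

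Slc25a42, which imports coenzyme A (chr8:70184340-70212305, minus strand), had 20.4, 20.8 and 20.6 CPM in LIN9 wt and 9.54, 11.6 and 10.1 CPM in LIN9 KO libraries of experiment 1. It had 17.3, 19.5 and 22.5 in wild-type, 14.1, 10.2 and 11.9 in LIN9 KO, 18.2, 21.6 and 21.1 in Sav1 KO and 10.9, 16.2 and 13.51 CPM in double KO libraries of experiment 2. The groups did not overlap in any of the LIN9 comparisons. The log2 fold changes were -0.98 ± 0.14 (edgeR adjusted p = 0.00015, the smallest of the family in experiment 1), -0.71 ± 0.20 (0.0091) and -0.59 ± 0.19 (0.028). With Sav1 KO, DESeq2 did not call Slc25a42, and the edgeR call was lost in 4 of 12 fits without 1 library (adjusted p up to 0.108).

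Slc25a26, the S-adenosylmethionine carrier (chr6:94500331-94604672, plus strand), had 20.0, 17.6 and 20.1 CPM against 12.9, 14.2 and 13.3 CPM in experiment 1. In experiment 2 it had 22.9, 25.3 and 27.6 CPM in wild-type, 12.5, 15.1 and 23.5 in LIN9 KO, 20.2, 24 and 22.5 in Sav1 KO and 16.7, 16.2 and 20.6 in double KO libraries, so that the third LIN9 KO library lay within the range of its controls. The log2 fold changes were -0.51 ± 0.13 (edgeR adjusted p = 0.0121), -0.59 ± 0.19 (0.0257) and -0.32 ± 0.19 (0.257). Without 1 library, the edgeR call of Slc25a26 was lost in 2 of 6 fits of experiment 1 (adjusted p up to 0.0588). In experiment 2 with Sav1 wt it was lost in 4 of 12 (0.127), and DESeq2 did not call Slc25a26. Slc25a17 and Slc25a51 lay between -0.07 (Slc25a51 in experiment 1) and 0.22 (Slc25a17 with Sav1 KO) in the 3 comparisons and did not pass.

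Among the carnitine shuttle enzymes around Slc25a20, Crat (carnitine acetyltransferase) was lower in all 3 LIN9 comparisons (-1.10, -1.05 and -0.91, edgeR adjusted p at most 4.96e-06) and Cpt1c higher (1.05, 1.56 and 1.22). Cpt2, which rebuilds acyl-CoA in the matrix, was lower with wild-type Sav1 (-0.31 and -0.39). Cpt1a lay at 0.01 and 0.10 without passing, and Cpt1b was listed at 0 in all libraries.

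Of the 4 iron and glutathione carriers, 1 was higher in every LIN9 comparison and 1 was lower with Sav1 KO. Slc25a37 (mitoferrin 1), the iron importer needed for haem in developing red cells (chr14:69241848-69285112, minus strand), had 68.1, 68.9 and 74.2 CPM in LIN9 wt and 199, 165 and 110 CPM in LIN9 KO libraries of experiment 1. Experiment 2 gave 69.8, 58.9 and 60.5 CPM in wild-type, 106, 97.3 and 109 in LIN9 KO, 63.9, 72.2 and 70.2 in Sav1 KO and 107, 94 and 78.9 in double KO libraries. Every LIN9 KO or double KO library lay above every library of the other groups, and the spread was widest among the LIN9 KO libraries of experiment 1. The log2 fold changes were 1.16 ± 0.19 (edgeR adjusted p = 0.00183), 0.72 ± 0.12 (3.2e-05) and 0.44 ± 0.12 (0.00605). The call with Sav1 KO was lost in 1 of 12 fits without 1 library, that without the first double KO library (edgeR adjusted p = 0.0818).

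Erythroid markers moved with Slc25a37. The summed level of the erythroid list was 5397 to 7346 CPM in LIN9 wt libraries and 67490, 35220 and 26090 CPM in the LIN9 KO libraries of experiment 1, in the order of the Slc25a37 values given for them. In the double KO libraries it was 22360, 13980 and 7639 CPM, again in the order of Slc25a37, against 2082 to 2764 CPM in Sav1 KO libraries. In the LIN9 KO libraries of experiment 2 it was 15540, 22390 and 28890 CPM, which is not the order of Slc25a37 there. The part of red cells in the Slc25a37 result was not tested.

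Slc25a28 (mitoferrin 2), the mitoferrin of other tissues, lay at -0.30 ± 0.11 (edgeR adjusted p = 0.0553), -0.24 ± 0.14 (0.218) and -0.14 ± 0.13 (0.522) and did not pass. As a share of both mitoferrins, in counts per kb, Slc25a37 was 53.2, 55.2 and 55.1% in LIN9 wt and 79.9, 77.8 and 70.6% in LIN9 KO libraries of experiment 1. In experiment 2 the share was 53.4, 48.2 and 50.0% in wild-type, 70.1, 62.3 and 68% in LIN9 KO, 47.6, 52.6 and 55.2% in Sav1 KO and 64.3, 61.3 and 58.5% in double KO libraries. The groups did not overlap in any LIN9 comparison, with differences of 21.6, 16.2 and 9.53 percentage points (p = 0.1 for each by the two-sided exact permutation test, its lower limit).

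Slc25a39, the most abundant carrier of this group, had 149, 162 and 165 CPM in LIN9 wt and 183, 137 and 144 CPM in LIN9 KO libraries of experiment 1, groups that overlapped. In experiment 2 it had 155, 130 and 141 CPM in wild-type, 128, 125 and 128 in LIN9 KO, 152, 141 and 138 in Sav1 KO and 113, 93.6 and 107 in double KO libraries. It was lower in the comparison with Sav1 KO (-0.46 ± 0.10, edgeR adjusted p = 0.00145, against -0.04 ± 0.12, 0.869, and -0.17 ± 0.10, 0.264), but the difference between the LIN9 effects with and without Sav1 did not pass (-0.29 ± 0.14, 0.761).

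The remaining groups held few changes. Of the 4 other amino acid carriers tested, Slc25a15, the ornithine carrier, was lower in experiment 1 (-0.37 ± 0.12, edgeR adjusted p = 0.0377; -0.28 ± 0.19, 0.322, in experiment 2 with Sav1 wt). DESeq2 did not call it in experiment 1 (adjusted p = 0.0877), and the edgeR call was lost in 5 of 6 fits without 1 library (adjusted p up to 0.152). Neither of the 2 pyrimidine nucleotide carriers nor any of the 3 carriers related to uncoupling proteins passed in any comparison with all libraries fitted. Fits of fewer libraries in which Slc25a36, Slc25a27 or Slc25a30 passed are given below. Of the 8 carriers without a settled substrate or of the outer membrane, Slc25a46, an outer membrane protein tied to mitochondrial shape, had 80.4, 76.9 and 93.5 CPM in LIN9 wt and 64.4, 68.4 and 64.5 CPM in LIN9 KO libraries of experiment 1. It had 91.4, 95.9 and 85 CPM in wild-type, 68.3, 76.4 and 72.3 in LIN9 KO, 79.7, 93.5 and 90.3 in Sav1 KO and 82.1, 73.9 and 70.8 in double KO libraries of experiment 2. The groups with wild-type Sav1 did not overlap and differed by -0.35 ± 0.10 (edgeR adjusted p = 0.0261) and -0.33 ± 0.11 (0.0267), and with Sav1 KO, where they overlapped, by -0.22 ± 0.11 (0.154). Without 1 library, the edgeR call of Slc25a46 was lost in 3 of 6 fits of experiment 1 (adjusted p up to 0.159). In experiment 2 with Sav1 wt it was lost in 2 of 12 (0.0725), and DESeq2 did not call Slc25a46.

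Slc25a34 showed the largest decrease among the called members of experiment 1 (-1.86 ± 0.49, edgeR adjusted p = 0.0134) but was barely expressed, with 12, 9 and 13 counts in LIN9 wt and 2, 5 and 2 counts in LIN9 KO libraries, or 1.24, 0.949 and 1.35 and 0.217, 0.524 and 0.206 CPM. DESeq2 did not call Slc25a34 there, and the edgeR call was lost in 2 of 6 fits without 1 library (adjusted p up to 0.0557). In experiment 2 it had 0.997, 1.03 and 1.04 CPM in wild-type, 1.31, 0.655 and 1.49 in LIN9 KO, 0, 0.337 and 1.36 in Sav1 KO and 1.02, 1.06 and 1.42 in double KO libraries, and the LIN9 groups overlapped (0.15 ± 0.69, 0.906). Slc25a53 showed the largest increase among the members called with Sav1 KO (0.65 ± 0.24, edgeR adjusted p = 0.046; DESeq2 0.124), from 7.06, 8.44 and 9.55 CPM in Sav1 KO to 14.3, 13.4 and 11.7 CPM in double KO libraries. It had 7.64, 12 and 8.99 in wild-type and 9.52, 14.4 and 12.7 CPM in LIN9 KO libraries, and 12.5, 10.8 and 9.66 against 17.1, 12.4 and 15.4 CPM in experiment 1, where the difference was 0.45 ± 0.16 (0.0648). The call with Sav1 KO was lost in 9 of the 12 edgeR fits without 1 library of experiment 2, among them each of the 6 libraries compared (adjusted p from 0.0318 to 0.173 over the 12).

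In all, 27 of the 44 members tested passed in neither LIN9 comparison with wild-type Sav1. Their log2 fold changes ran from -0.50 to 1.14 in experiment 1 and from -1.53 to 1.48 in experiment 2, with standard errors of up to 1.07 and 1.36 at the lowest counts, so a change of the size seen in the called members was not resolved for the rarest ones. Relatives with other symbols gave mixed values: Mtch2 was lower in all 3 LIN9 comparisons (-0.32, -0.30 and -0.41), Ucp2 higher with wild-type Sav1 (0.53 and 0.74), and Mtch1 passed in none. Of 17 other mitochondrial transporters tested, 6 were lower and 1 higher in experiment 1, 6 and 4 in experiment 2 with Sav1 wt and 8 and 2 with Sav1 KO. The pyruvate carrier subunit Mpc2 changed by -0.72, -0.63 and -0.75, and the calcium uniporter Mcu by 0.62, 0.53 and 0.68.

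The second question was whether loss of Sav1 alters the carriers, in LIN9 wt or in LIN9 KO ventricles. Between Sav1 KO and wild-type ventricles 0 of 44 members passed (edgeR, lowest adjusted p = 0.999; 1 member at an unadjusted p under 0.05; 0 by DESeq2), beside 3 of all 17675 genes, or 0.017%. Between double KO and LIN9 KO ventricles it was again 0 (edgeR, lowest adjusted p = 0.158, for Slc25a30 at -0.74 ± 0.22; 6 members at an unadjusted p under 0.05), beside 2 genes or 0.0113%. DESeq2 called 0 members there but gave an adjusted p to only 7 of the 44, and 1894 genes in all. The background of this comparison depended on the setting, with 46 genes called by DESeq2, 84 with the replicate block and 309 with no filter, with 0 members under each. Without the third LIN9 KO library it was 377 genes, with 1 member. In the test of whether the effects of LIN9 and Sav1 depend on each other, 0 members passed (edgeR, lowest adjusted p = 0.68; 2 members at an unadjusted p under 0.05; 0 by DESeq2), as did 0% of all genes.

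In LIN9 wt ventricles the Sav1 effect lay within 1 standard error of 0 for each of the 5 carriers most abundant per kb. On the log2 scale (± SE) it was -0.0044 ± 0.10 for Slc25a4, -0.05 ± 0.12 for Slc25a5, 0.04 ± 0.09 for Slc25a3, -0.08 ± 0.11 for Slc25a11 and 0.01 ± 0.10 for Slc25a39. Slc25a13, the next in abundance, was the member with an unadjusted p under 0.05 there (-0.31 ± 0.10, edgeR adjusted p = 0.999). In LIN9 KO ventricles the effect was -0.03 ± 0.10 for Slc25a4 and 0.02 ± 0.12 for Slc25a5. It was -0.11 ± 0.09 for Slc25a3, -0.20 ± 0.11 for Slc25a11 and -0.27 ± 0.10 for Slc25a39 (edgeR adjusted p = 0.268), each over 1 standard error below 0. None passed the threshold, and the Sav1 effect did not differ between LIN9 backgrounds for any member in the direct test (edgeR, lowest adjusted p = 0.68). For Slc25a1 the Sav1 effect in LIN9 KO ventricles was -0.51 ± 0.17 (edgeR adjusted p = 0.203), and all 3 double KO libraries lay below the 3 LIN9 KO libraries, the third of them only just. Without that library Slc25a1 passed (-0.69 ± 0.16, edgeR adjusted p = 0.0191), so its call turned on 1 library. It was the 1 of 44 members called there, a share near the 2.14% of all genes.

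Double KO against wild-type ventricles, a comparison that shares its libraries with those above, gave 9 members lower and 1 higher, beside 9.96% and 10.7% of all genes, with a median of -0.06 against 0.03. The values were -0.60 ± 0.10 for Slc25a4 (edgeR adjusted p = 3.81e-05), -0.79 ± 0.12 for Slc25a5 (1.48e-05), -0.50 ± 0.09 for Slc25a3 (0.000244), -0.57 ± 0.11 for Slc25a11 (0.000271) and 0.57 ± 0.12 for Slc25a37 (0.000793). Slc25a1, at 0.42 ± 0.18 (0.1), and Slc25a20, at -0.28 ± 0.13 (0.119), did not pass.

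**Figure D5:**
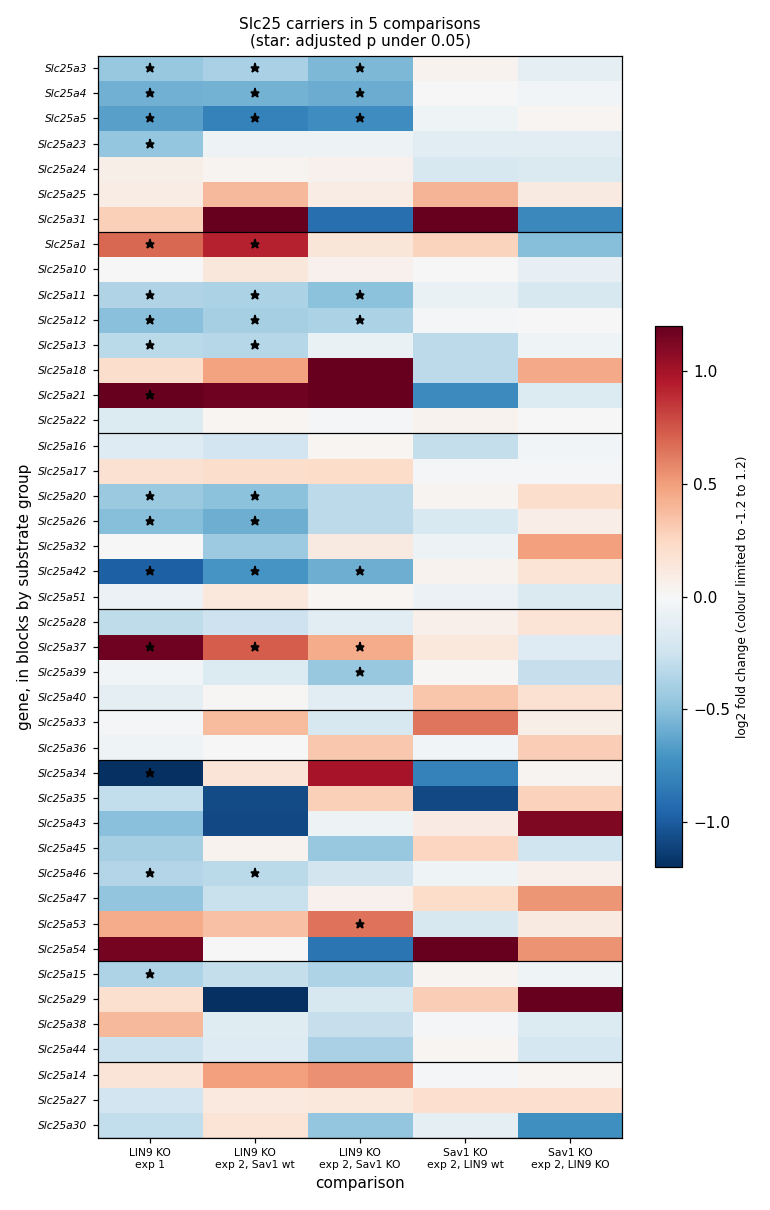
Log2 fold change (colour, limited to 1.2 in either direction) of 43 of the 44 tested members in 5 comparisons, grouped by role, with a star where the adjusted p is below 0.05. Stars stand in the 3 LIN9 columns, 16, 12 and 9 of them, and in neither Sav1 column.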

How the data were processed

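RNA-seq of mouse ventricles at E13.5 was analysed (18 libraries, 3 per group); chromatin samples of the series were not analysed here. The authors aligned reads to mm10 with TopHat (TopHat2 2.1.0 in the submitters' processing notes, which also name Bowtie2 and edgeR without a version), brought libraries down to the mappable reads of the smallest, and counted reads per gene; the deposited values are raw counts, 1 table per experiment. Bringing depth down makes library sizes alike within an experiment and adds counting noise. Strandedness and the treatment of overlapping genes are not given in the sources used here, so reads of overlapping or antisense genes cannot be told apart. Tables of the authors' own comparisons, which hold log2 fold changes and p-values, were not used.

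Genes with a mean count above 1 were tested with edgeR 4.0.16 (R 4.3.3; TMM, robust quasi-likelihood F-test, Benjamini-Hochberg over all genes, threshold 0.05), experiment 1 alone, experiment 2 in 1 fit of 12 libraries, and the difference of LIN9 effects in 1 fit of the 12 libraries with wild-type Sav1. The study likewise used edgeR with this filter. Identifiers listed more than once (4 of them) were kept once. The test scripts were tested on simulated data with the same spread for all genes and changes larger than most of those reported here. That run therefore does not check the calls of smaller changes. Exonic lengths and coordinates come from GENCODE on GRCm38 (mm10) and promoters from RefSeq (GRCm38.p6); the start sites of these annotations differ, by 54 to 440 bases for the promoters shown. Members and gene lists were chosen with earlier results of these data known. Values in every library are given for members past the threshold in the same direction in both LIN9 comparisons with wild-type Sav1, the 5 most abundant per kb, members past it in a Sav1 comparison or a difference of effects, and the member with the largest change in each direction among those called in each LIN9 comparison. Other members are given by range, counts and up to 5 examples. The values of 1 tested member that met this rule are not reported here, and it is left out of the plots of single members but kept in counts and sums. Slc25a30 and Slc25a13 under the Sav1 comparisons were picked after their values were seen. Alternatives were DESeq2 1.42.0, relative log expression factors, other filters, haemoglobin and mitochondrial genes left out, a replicate block, only the groups compared, and each library left out.

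Replicate numbers are shared between groups in the labels. Over genes with a mean count above 50, deviations from the group mean correlated between libraries of the same number by 0.341 to 0.72 for wild-type and LIN9 KO and 0.171 to 0.427 for wild-type and Sav1 KO, but by 0.0588 to 0.287 in experiment 1 and -0.12 to 0.185 in pairs with double KO libraries. Over all genes tested the first 2 ranges were 0.0891 to 0.393 and 0.0193 to 0.143. Over all genes tested not every pair was thus over 0.1, and the limit of 50 counts was chosen after seeing that. The numbers are read as pairing the first 2 comparisons on this hint from the data and not the design, and the block changed no call of a member in them.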

Additional observations from a re-analysis of the deposited data

How the results depend on the processing

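Of the 49 calls of single members in the LIN9 and double KO comparisons, 41 held under every alternative other than leaving out a library, 8 were lost under at least 1, and none changed direction. All 12 carriers called in both LIN9 comparisons with wild-type Sav1 stayed called under those alternatives in experiment 1, and 10 of 12 in experiment 2, where DESeq2 did not call Slc25a26 and Slc25a46. DESeq2 also did not call Slc25a15 and Slc25a34 in experiment 1 or Slc25a42 and Slc25a53 with Sav1 KO, so that 1 member was higher there in place of 2. Between double KO and wild-type, DESeq2 and the block within the groups compared did not call Slc25a42. In experiment 1, 5 members were higher with no filter and 5 with the replicate block, where Slc25a38 and Slc25a53 passed. Beside them, 2402 of all 24417 genes were higher with no filter and 2629 of all 19752 with the block. The block added Slc25a28 as lower in experiment 1 and changed no call of the 12 carriers. In experiment 2 with the replicate block, LIN9 KO against wild-type again gave 10 members lower and 2 higher. Of all 17675 genes 1993 were lower and 2374 higher there. Sav1 KO against wild-type gave 0 members, beside 2 of all genes. With only the groups compared in the fit, Slc25a36 (0.32 on the log2 scale, edgeR adjusted p = 0.0108) and Slc25a44 (-0.39, 0.0465) also passed with Sav1 KO. Between double KO and wild-type, Slc25a30 (-0.59, edgeR adjusted p = 0.0486) and Slc25a26 (-0.52, 0.0336) passed in such a fit. Slc25a30 also passed there in some fits without 1 library. The block within only the groups compared, and other scalings of the family sum, were chosen after seeing the data. Over all genes, Sav1 in LIN9 wt ventricles gave 22 calls with no filter and 109 with the block within the groups compared, against 3, and the dependence of both effects gave 17 with no filter, against 0, with 0 members among them. No scaling moved the median of all genes by over 0.1.

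Leaving out 1 library at a time, 6 of the 12 carriers (Slc25a1, Slc25a4, Slc25a5, Slc25a12, Slc25a20 and Slc25a37) stayed called every time in both experiments. Of the 49 calls 17 were lost without at least 1 library. In experiment 1 Slc25a15 was lost in 5 of 6 such fits (adjusted p up to 0.152), Slc25a13 in 4 (0.132), and Slc25a11 (0.091) and Slc25a46 (0.159) in 3. In experiment 2 Slc25a26 with Sav1 wt was lost in 4 of 12 (0.127), Slc25a42 with Sav1 KO in 4 (0.108) and between double KO and wild-type in 5 (0.179), and Slc25a53 with Sav1 KO in 9 (0.173). Members lower in experiment 1 ranged from 7 to 14, with 7 without the first LIN9 KO, 8 without the third LIN9 wt and 9 without the first LIN9 wt library, where the share of all genes that was lower also fell, from 9.78% to 7.11%, 6.33% and 6.57%, and members higher from 3 to 5. In experiment 2 the ranges were 7 to 10 lower and 2 to 3 higher with Sav1 wt, 7 to 8 lower and 0 to 2 higher with Sav1 KO (0 without the first double KO library), 7 to 12 lower and 1 to 1 higher for double KO against wild-type, 0 to 1 for Sav1 in LIN9 KO ventricles (Slc25a1), and 0 to 0 for Sav1 in LIN9 wt ventricles, for the dependence of both effects (with 64 of all genes called without the third LIN9 KO library) and for the difference between experiments. The percentage of all genes called also moved between these fits of experiment 2. Without the first wild-type library, 9.81% of all genes were lower for LIN9 with Sav1 wt, against 10.5% with all libraries. With Sav1 KO it was 12.1% against 11.6%, and for double KO against wild-type 7.18% against 9.96%. Within pairs of carriers, the shares that changed sign were that of Slc25a12 between double KO and LIN9 KO (-0.931 percentage points without the third double KO library, range -0.931 to 2.32) and that of Slc25a37 between Sav1 KO and wild-type (-0.415 without the third Sav1 KO library, range -0.415 to 3.37). The causes of these shifts were not tested.

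Depth limits the rare carriers, since 3 counts are 0.983 to 1.12 CPM in experiment 2, and 40 and 36 members remained under edgeR's own filter in experiments 1 and 2.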

Other observations

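Slc25a36, a pyrimidine nucleotide carrier, and Slc25a27, a relative of the uncoupling proteins, were picked after their values were seen. In experiment 2 Slc25a36 had 105, 156 and 168 CPM in wild-type and 82.4, 196 and 148 CPM in LIN9 KO libraries. Slc25a27 had 22.6, 33.6 and 29.7 CPM in wild-type and 14.8, 41.3 and 37.6 CPM in LIN9 KO libraries. Both were lowest in the first library of each of these groups. Without the first LIN9 KO library Slc25a27 passed the test (0.45 ± 0.17 on the log2 scale, edgeR adjusted p = 0.0446, against 0.843 with it), so that this value rests on 1 library.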
